A study of Homo sapiens with 15 samples.

Results

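Lysosomal enzymes and lysosomal membrane proteins were followed in neuroblastoma cells while CDK2, a kinase of the cell cycle, was depleted by an inducible hairpin. The group held 39 genes, taken by symbol: structural membrane proteins, cathepsins and other proteases, glycosidases, sulfatases, lipid hydrolases and their activators, the regulator TFEB with 2 membrane transport proteins, and subunits of the vacuolar proton pump. Of these, 38 had a probe set that names a single gene, among 19775 such genes on the array, and 35 lay above the signal filter, among 11774 genes tested. GLB1 (beta-galactosidase) lay only on a probe set shared with another gene, and CTSZ (cathepsin Z), ARSA (arylsulfatase A) and FUCA1 (alpha-L-fucosidase) lay below the filter, so none of these 4 was tested. The genes were listed by name and role, with earlier results of these data known.

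Lysosomes are acidic organelles in which soluble hydrolases break down proteins, glycans and lipids that arrive by endocytosis or autophagy. The enzymes need the low pH set up by the vacuolar proton pump (V-ATPase), and a coat of glycosylated membrane proteins such as LAMP1 and LAMP2 lines the inner face of the membrane. Many lysosomal genes carry a palindromic E-box element, known as the CLEAR element, to which the transcription factor TFEB binds, and mTORC1 signalling at the lysosomal surface keeps TFEB in the cytoplasm while nutrients are plentiful.

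All arrays came from 1 clone of IMR32, a human neuroblastoma line with amplified MYCN, which carried the pcDNA6/TR tetracycline repressor and a pTER construct whose hairpin matches CDK2 mRNA at nucleotides 546 to 566. Hairpin expression was induced with doxycycline at 100 ng/ml, and total RNA was taken 0, 8, 24, 48 and 72 h later, with 3 Affymetrix U133 Plus 2.0 arrays at each time and 15 in all. The time labels carry no unit; they were read as hours, as known for this study. Untreated later times and a control hairpin were not analysed here, so CDK2 depletion, doxycycline and time in culture cannot be told apart. Nothing states that replicates came from separate cultures, and p-values then measure only the spread between these arrays, which may be technical.

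CDK2 itself was down to a mean signal of 30.1 ± 9.90 at 72 h, and to 94.5 ± 5.56 already at 8 h, against 232 ± 16.3 at 0 h (SD, n = 3 each). Arrays of the same time correlated at 0.977 to 0.991 and the lowest correlation between times was 0.921. Replicate 3 at 72 h and replicate 3 at 8 h had the lowest array weights, 0.36 and 0.40. Of 9 sympathetic neuroblastoma markers on the array, 7 lay above the filter, with summed signals of 12688 to 13626 at 72 h, against 10413 to 10808 at 0 h; TH and STMN2 lay below it. Macrophage markers summed to only 62.1 to 78.9 at 72 h, against 51.6 to 94.8 at 0 h, with CD14, CSF1R and CD163 among the 7 of 8 below the filter, and no Schwann or glial marker passed it. Fibroblast and mesenchymal markers (4 of 9 above the filter) summed to 747 to 909 at 72 h, against 497 to 732 at 0 h, and their part in the results was not tested.

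The lysosomal genes moved late and in both directions. Changes below are log2 differences of (MAS5 signal + 16) with their standard error (SE), and a gene was called at a Benjamini-Hochberg adjusted p under 0.05 over all 11774 genes. At 8 h no lysosomal gene was called (limma, lowest adjusted p 0.42, with 2 of 35 at an unadjusted p under 0.05), beside 0.0934% of all genes called higher and 0.357% called lower. At 24 h 1 was called higher and 2 lower, beside 7.74% and 5.72% of all genes. At 48 h 5 were higher and 6 lower, 14.3% and 17.1% of the 35, beside 26.3% and 17.7% of all genes (44.0% in either direction). At 72 h 11 were higher and 5 lower, 31.4% and 14.3%, beside 32.8% and 22.7% of all genes.

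The share of lysosomal genes called was thus close to or below that of the whole array at every time. Over the time course 20 of the 35 passed the moderated F test (57.1%), beside 57.0% of all genes. The median change of the 35 was 0.02, 0.03, 0.13 and 0.14 at 8, 24, 48 and 72 h, and that of all genes was 0.02, 0.05, 0.08 and 0.10. The 3 arrays at 8, 24, 48 and 72 h did not overlap the 3 at 0 h for 6, 13, 14 and 21 of the 35, beside 15.8%, 34.4%, 56.6% and 61.4% of all genes. With an absolute log2 change of at least 0.5 required as well, 6 of the 35 were called at 72 h and 4 at 48 h, beside 33.7% and 23.3% of all genes. When each array was centred on its median, the split at 72 h was 6 higher and 8 lower for the lysosomal genes and 2978 higher and 3152 lower for all genes, where the signals as deposited gave 3861 and 2670. At 48 h centring gave 2201 higher and 2628 lower over all genes, against 3093 and 2082 as deposited, and at 24 h 478 and 871, against 911 and 673.

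**Figure D1:**
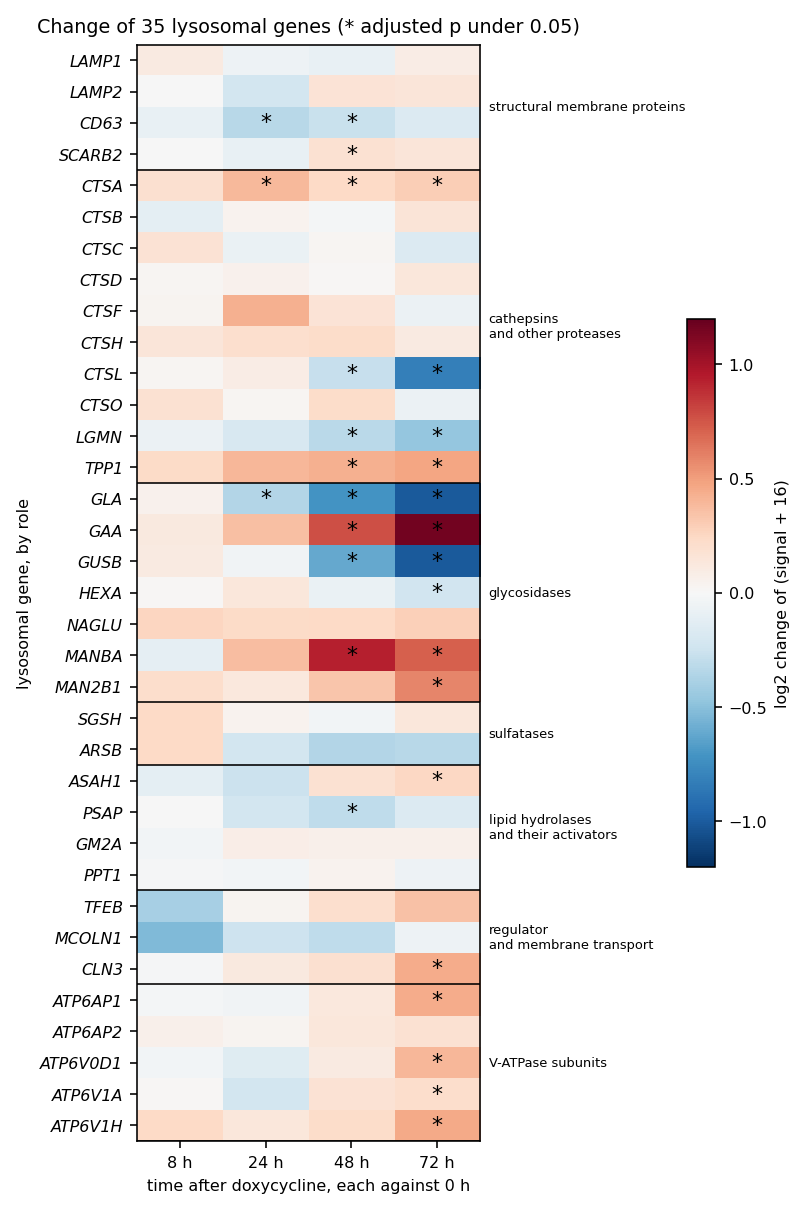
Log2 change of (signal + 16) at 8, 24, 48 and 72 h against 0 h for the 35 tested lysosomal genes, grouped by role; red is higher and blue lower than 0 h, and an asterisk marks an adjusted p under 0.05. No cell is marked at 8 h, and the greatest changes at 72 h, a rise of 1.16 in GAA and falls of 1.01 in GLA and GUSB, stand beside each other among the glycosidases.

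**Figure D2:**
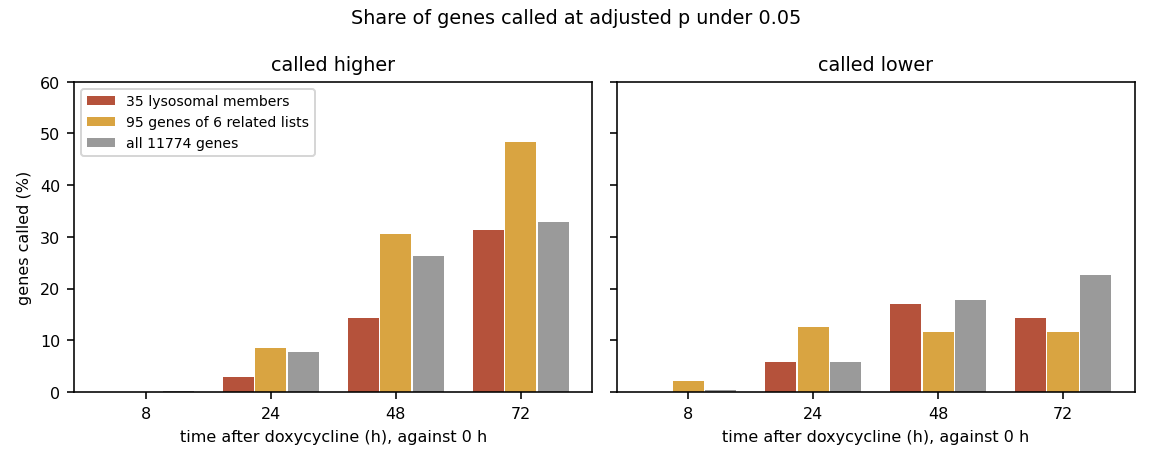
Percentage of genes called higher (left) and lower (right) at each time against 0 h, for the 35 lysosomal genes, 95 measured genes of 6 related pathway lists and all 11774 genes. At 72 h the lysosomal genes reached 31.4% higher and 14.3% lower, the related lists 48.4% and 11.6%, and all genes 32.8% and 22.7%.

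Of the 35 genes, 19 were called at some time and 16 at none. Beside this, 55.5% of all genes were called at 72 h in either direction, and their share called at any time was not counted. No gene was called higher at one time and lower at another. At 72 h alone 7 genes were called higher (MAN2B1, ASAH1, CLN3, ATP6AP1, ATP6V0D1, ATP6V1A and ATP6V1H), and GAA, MANBA and TPP1 were called higher at 48 and 72 h. Among all genes 32.8% were called higher at 72 h, whether or not called earlier. A first call at 72 h does not place the rise after 48 h. In the main fit no lysosomal gene was called higher at 72 h against 48 h. CTSA was called higher at 24, 48 and 72 h and GLA lower at the same 3 times. The 19 genes not called at 72 h had changes between -0.34 and 0.36, with 95% intervals reaching -0.69 and 0.69.

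The glycosidases, which trim sugars from glycoproteins, glycosaminoglycans, glycogen and glycolipids, held the greatest changes of the group and split evenly. Of 7 tested, 3 were called higher at 72 h (GAA, MANBA and MAN2B1) and 3 lower (GLA, GUSB and HEXA), beside 55.5% of all genes called in either direction. All 7 had arrays at 72 h that did not overlap those at 0 h, beside 61.4% of all genes. In bulk RNA, fewer cells of a kind and less RNA per cell cannot be told apart.

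GAA is acid alpha-glucosidase, which breaks down glycogen in the lysosome. Its signal on the 3 arrays was 89.3, 67.8 and 77.1 at 0 h, 80.4, 91.3 and 85.2 at 8 h, 106.1, 101.0 and 105.6 at 24 h, 148.9, 149.0 and 135.8 at 48 h, and 243.6, 202.1 and 146.0 at 72 h. The arrays at 24, 48 and 72 h all lay above every array at 0 and 8 h, and replicate 3 at 72 h lay within the range of 48 h. GAA averaged 197 ± 49.0 at 72 h, against 78.1 ± 10.8 at 0 h (SD, n = 3 each), a rise of 1.16 ± 0.14 (SE, adjusted p 1.2e-06), after 0.78 ± 0.14 at 48 h (adjusted p 1.8e-04). The change of 0.36 at 24 h was not called (adjusted p 0.093; adjusted p 0.029 without replicate 3 of 72 h). The promoter of GAA is shown because it holds TCACGTGA, a form of the TFEB element, in 2 copies, in capitals. The sequence is the RefSeq window on GRCh38.p14 of 250 bases before the gene start and 50 after.
GAA promoter, chr17:80101331-80101630, strand +: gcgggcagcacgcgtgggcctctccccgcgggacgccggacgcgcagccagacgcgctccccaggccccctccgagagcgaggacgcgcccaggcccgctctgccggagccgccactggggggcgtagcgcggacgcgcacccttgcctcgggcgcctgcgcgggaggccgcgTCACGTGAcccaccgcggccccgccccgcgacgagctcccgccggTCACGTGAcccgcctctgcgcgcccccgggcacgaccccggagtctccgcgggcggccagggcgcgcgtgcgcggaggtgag

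MANBA is lysosomal beta-mannosidase, and MAN2B1 is lysosomal alpha-mannosidase; both act in the breakdown of N-linked glycans. MANBA had signals of 24.9, 25.8 and 36.8 at 0 h, 26.4, 25.3 and 24.8 at 8 h, 37.6, 49.3 and 39.8 at 24 h, 58.5, 75.7 and 75.6 at 48 h, and 48.6, 56.5 and 69.9 at 72 h. All arrays at 24, 48 and 72 h lay above those at 0 h, and the ranges of 48 and 72 h overlapped. The rise against 0 h was 0.93 ± 0.15 at 48 h (adjusted p 5.6e-05) and 0.72 ± 0.15 at 72 h (adjusted p 4.4e-04), after an uncalled 0.37 at 24 h (adjusted p 0.10). MAN2B1 had signals of 110.6, 116.1 and 105.3 at 72 h, against 80.8, 73.3 and 54.0 at 0 h. These arrays did not overlap, and the rise was 0.58 ± 0.15 (adjusted p 0.0030). At 48 h the change of MAN2B1 was 0.33 and not called (adjusted p 0.084), and it was called with replicate number as a block (adjusted p 0.035) and without replicate 1 of 0 h or replicate 3 of 48 h (adjusted p 0.04997 and 0.0072).

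GLA is alpha-galactosidase A, which removes terminal galactose from globotriaosylceramide and is deficient in Fabry disease. Its signal was 419.2, 442.3 and 473.4 at 0 h, 429.4, 436.2 and 523.1 at 8 h, 363.7, 356.7 and 318.4 at 24 h, 271.7, 262.4 and 258.1 at 48 h, and 200.8, 197.4 and 243.4 at 72 h. From 24 h on, all arrays of each time lay below all arrays of the time before. GLA averaged 214 ± 25.6 at 72 h, against 445 ± 27.2 at 0 h (SD, n = 3 each), a change of -1.01 ± 0.10 (adjusted p 8.8e-08), after -0.72 at 48 h (adjusted p 1.0e-05) and -0.35 at 24 h (adjusted p 0.023). The call at 24 h was lost without replicate 2 or 3 of 0 h or replicate 3 of 24 h (adjusted p 0.061 to 0.098). The promoter of GLA is shown as that of a gene with no exact TCACGTGA or CACGTG in this window. Inexact forms of the TFEB element were not searched, and any link of the sequence to the fall was not tested.
GLA promoter, chrX:101407876-101408175, strand -: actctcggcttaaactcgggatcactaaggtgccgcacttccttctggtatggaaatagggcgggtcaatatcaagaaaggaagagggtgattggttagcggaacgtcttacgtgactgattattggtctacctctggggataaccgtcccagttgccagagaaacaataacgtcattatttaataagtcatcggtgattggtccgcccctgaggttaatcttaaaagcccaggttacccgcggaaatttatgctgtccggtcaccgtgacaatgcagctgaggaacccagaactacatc

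GUSB is beta-glucuronidase, which acts on glycosaminoglycans and is often used as a reference gene in PCR assays. Its signal was 382.6, 345.1 and 346.8 at 0 h, 398.1, 365.2 and 394.2 at 8 h, 352.2, 349.1 and 338.6 at 24 h, 239.3, 232.2 and 215.3 at 48 h, and 187.3, 182.8 and 143.7 at 72 h. The arrays at 24 h lay below all of those at 8 h and overlapped those at 0 h, those at 48 h lay below all earlier ones, and those at 72 h lay below those at 48 h. GUSB averaged 171 ± 24.0 at 72 h, against 358 ± 21.2 at 0 h (SD, n = 3 each), a change of -1.01 ± 0.09 (adjusted p 5.7e-08), and changed by -0.61 at 48 h (adjusted p 3.9e-05). HEXA, the alpha subunit of beta-hexosaminidase, had signals of 187.1, 157.6 and 167.5 at 72 h, against 210.9, 192.8 and 203.4 at 0 h. The arrays did not overlap, but the change of -0.23 ± 0.09 was barely past the threshold (adjusted p 0.046), and 9 of the 15 fits that left out a single array lost the call (adjusted p up to 0.17). NAGLU, which removes N-acetylglucosamine from heparan sulfate, had signals of 116.4, 143.8 and 136.9 at 72 h, against 107.0, 109.7 and 99.6 at 0 h, and its change of 0.29 was not called (adjusted p 0.091; adjusted p 0.045 without replicate 3 of 8 h).

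**Figure D3:**
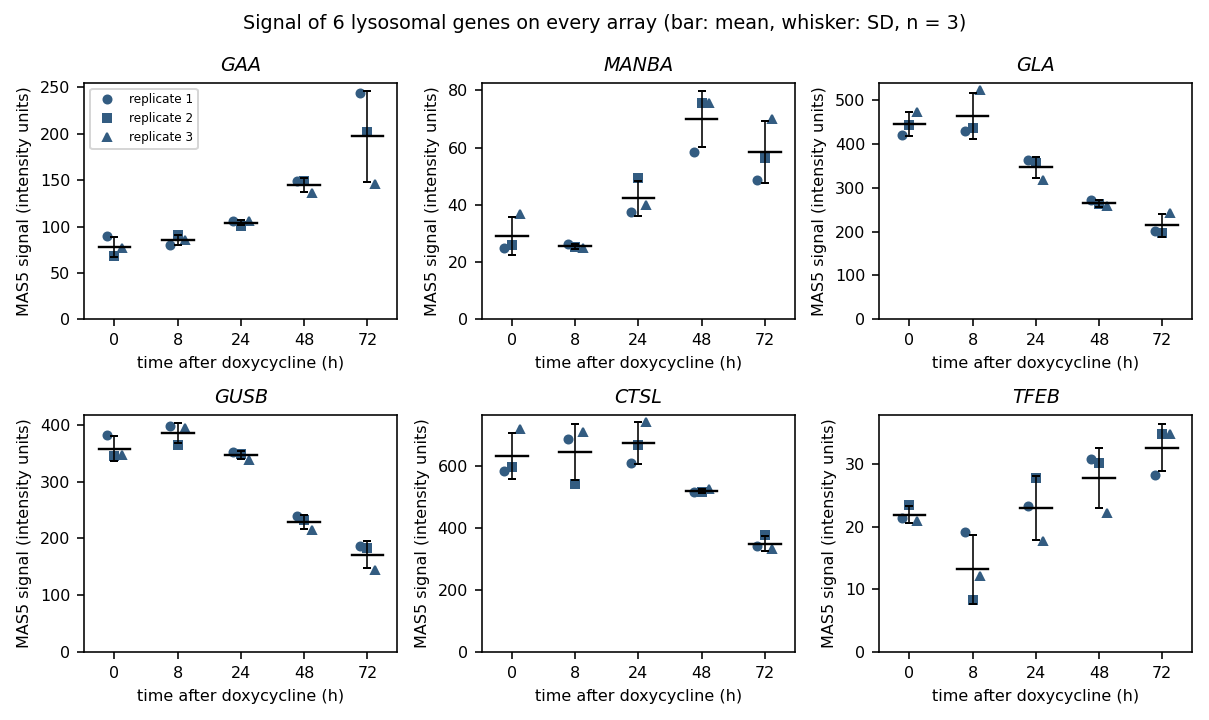
MAS5 signal of GAA, MANBA, GLA, GUSB, CTSL and TFEB on each of the 15 arrays at 0, 8, 24, 48 and 72 h; symbols mark replicate numbers, bars the mean and whiskers the SD of 3 arrays. At 72 h GAA lay between 146.0 and 243.6 and GLA between 197.4 and 243.4, against 67.8 to 89.3 for GAA and 419.2 to 473.4 for GLA at 0 h.

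Among the proteases, 10 genes were tested, and 2 were called higher (TPP1 and CTSA) and 2 lower (CTSL and LGMN) at 72 h, beside 32.8% and 22.7% of all genes. CTSL is cathepsin L, a cysteine protease. Its signal was 585.7, 595.7 and 719.6 at 0 h, 687.1, 540.9 and 708.7 at 8 h, 608.4, 668.9 and 743.5 at 24 h, 516.1, 515.1 and 526.9 at 48 h, and 341.5, 376.4 and 331.7 at 72 h. The arrays at 48 h lay just below all earlier ones and those at 72 h far below. CTSL averaged 350 ± 23.5 at 72 h, against 634 ± 74.6 at 0 h (SD, n = 3 each), a change of -0.82 ± 0.10 (adjusted p 3.0e-06). The change of -0.27 at 48 h (adjusted p 0.042) lost its call without replicate 3 of 0 h, replicate 2 of 24 h or any array of 48 h (adjusted p 0.051 to 0.21).

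LGMN is legumain, an asparaginyl endopeptidase that also processes cathepsins to their mature forms. Its signals were 83.6, 91.1 and 82.4 at 72 h, against 122.1, 129.0 and 122.0 at 0 h, with no overlap, a change of -0.47 ± 0.10 (adjusted p 6.5e-04), after -0.32 at 48 h (adjusted p 0.013). TPP1, tripeptidyl peptidase of the lysosome, had signals of 145.5, 139.7 and 126.7 at 72 h, against 76.9, 90.7 and 118.6 at 0 h. Its rise of 0.48 ± 0.15 (adjusted p 0.011) lost its call without replicate 1 of 0 h (adjusted p 0.071), and TPP1 did not pass the F test (adjusted p 0.0503). Its rise of 0.43 at 48 h (adjusted p 0.025) was lost without replicate 1 or 2 of 0 h or replicate 3 of 48 h (adjusted p 0.070 to 0.16). At 24 h the TPP1 change of 0.39 was not called in the main fit. It was called with unique probe sets preferred (0.88), the mean of probe sets and array weights (adjusted p 0.011 to 0.024). Leaving out replicate 3 of 0 h also gave a call (adjusted p 0.034).

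CTSA, the protective protein that stabilises beta-galactosidase and neuraminidase, was the only 1 of the 35 tested genes called higher at 24 h in the main fit. Its signals were 357.2, 367.2 and 389.9 at 24 h, against 275.1, 276.9 and 290.0 at 0 h, a rise of 0.38 ± 0.09 (adjusted p 0.0092) with no overlap. The rise was 0.24 at 48 h (adjusted p 0.043) and 0.30 at 72 h (adjusted p 0.011). The call at 48 h was lost without any single array of 0 or 48 h, or without replicate 1 or 2 of 24 h (adjusted p 0.051 to 0.13), and that at 72 h without replicate 3 of 72 h (adjusted p 0.056). With arrays centred on their medians CTSA was called at none of the 3 times. CTSB and CTSD, a cysteine and an aspartic cathepsin, changed by 0.16 and 0.14 at 72 h and were not called (adjusted p 0.16 and 0.47); CTSB was called with array weights (0.23, adjusted p 0.019) and without replicate 3 of 8 and 72 h or of all times. The remaining proteases, CTSC, CTSF, CTSH and CTSO, had changes of -0.16 to 0.11 at 72 h, none called. CTSC passed the F test (adjusted p 0.0086). It was called lower at 72 h with median centring and with the mean of probe sets (both -0.26, adjusted p 0.0097 and 0.0036). CTSF stood at 0.43 at 24 h (adjusted p 0.083).

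None of the 4 structural membrane proteins was called at 72 h, beside 55.5% of all genes called in either direction. With quantile normalisation LAMP1 (0.22, adjusted p 0.049) and SCARB2 (0.28, adjusted p 0.0035) were called higher at 72 h. LAMP1, the most abundant lysosomal membrane glycoprotein in many cells, had signals of 1057.2, 1143.0 and 1353.3 at 72 h, against 1023.5, 1130.0 and 1167.1 at 0 h, a change of 0.09 with a 95% interval of -0.12 to 0.30 (adjusted p 0.47). LAMP2, which is needed for the fusion of autophagosomes with lysosomes, changed by 0.14 (adjusted p 0.38). CD63, a tetraspanin of late endosomes and lysosomes, had signals of 2033.1, 1894.1 and 1863.2 at 24 h, against 2409.4, 2394.6 and 2503.4 at 0 h, a change of -0.33 ± 0.07 (adjusted p 0.0056). It was also lower at 48 h (-0.27, adjusted p 0.0061), and at 72 h its change was -0.17 and not called (adjusted p 0.063; adjusted p 0.0097 without replicate 3 of 72 h). SCARB2, the receptor that carries glucocerebrosidase to lysosomes, rose by 0.18 at 48 h (adjusted p 0.0495), and 10 of the 15 fits that left out a single array lost that call (adjusted p up to 0.18).

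The sulfatases SGSH and ARSB, which act on heparan and dermatan sulfate, had changes of 0.14 and -0.34 at 72 h (adjusted p 0.39 and 0.086), and the probe sets in use were called at no time. ARSB was called lower at both 48 and 72 h with quantile normalised arrays, median-centred arrays and the mean of probe sets (-0.48 to -0.38, adjusted p 0.014 to 0.040), at 48 h with array weights (adjusted p 0.034) and at 72 h without replicate 2 of 72 h (adjusted p 0.042). Of 4 genes for lipid breakdown, 1 was called at 72 h, beside 55.5% of all genes called in either direction. ASAH1, acid ceramidase, had signals of 678.2, 780.9 and 739.7 at 72 h, against 564.5, 629.6 and 645.2 at 0 h, a rise of 0.25 ± 0.10 (adjusted p 0.036) that lost its call without replicate 1 or 2 of 0 h or replicate 2 or 3 of 72 h (adjusted p 0.056 to 0.15). PSAP, the precursor of the saposins that present sphingolipids to their hydrolases, was lower at 48 h (-0.31, adjusted p 0.020), a call lost without replicate 3 of 0 h or replicate 2 of 48 h (adjusted p 0.066 and 0.12), and stood at -0.17 at 72 h (adjusted p 0.18); its other probe set was called lower at 24, 48 and 72 h. GM2A, the activator of GM2 ganglioside breakdown, and PPT1, palmitoyl-protein thioesterase, stayed within 0.08 of 0 h on the log2 scale at all 4 times on the probe sets in use, and neither was called. PPT1 was called higher at 48 h with quantile normalisation (0.16, adjusted p 0.029), and another probe set of GM2A was called higher at 48 and 72 h.

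TFEB, the transcription factor that gives its name to this regulation, was measured near the filter signal of 16.6. Its signals were 21.4, 23.5 and 21.0 at 0 h, 19.2, 8.3 and 12.1 at 8 h, 23.4, 27.9 and 17.7 at 24 h, 30.8, 30.3 and 22.3 at 48 h, and 28.3, 34.9 and 34.8 at 72 h. All arrays at 8 h lay below those at 0 h and all at 72 h above them, while those at 24 and 48 h overlapped 0 h. TFEB passed the F test (adjusted p 0.0065), but no single time was called: the changes were -0.40, 0.03, 0.20 and 0.36 at 8, 24, 48 and 72 h (adjusted p 0.42, 0.93, 0.33 and 0.067), each with an SE of 0.16. At 72 h TFEB was called with a pseudocount of 64 (0.17, adjusted p 0.048) and with no variance trend (adjusted p 0.035). CLN3, a lysosomal membrane protein mutated in juvenile Batten disease, had signals of 184.9, 174.4 and 228.5 at 72 h, against 137.5, 121.5 and 158.5 at 0 h, a rise of 0.45 ± 0.12 (adjusted p 0.0039) with no overlap.

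MCOLN1 encodes mucolipin, the calcium channel of the lysosomal membrane. Its signals were 181.1, 161.7 and 198.9 at 0 h, 185.6, 167.2 and 52.1 at 8 h, 147.0, 150.0 and 149.5 at 24 h, 142.4, 154.9 and 132.3 at 48 h, and 219.3, 223.7 and 102.0 at 72 h. Replicate 3 stood far below the other arrays at 8 and 72 h, and these are the 2 arrays with the lowest weights. MCOLN1 was not called at any time, with changes of -0.53 at 8 h and -0.06 at 72 h and an SE of 0.30. Without both of those arrays the change was -0.03 at 8 h and 0.28 at 72 h, where it was called (adjusted p 0.028), and without replicate 3 of all times it was 0.34 at 72 h (adjusted p 0.0094). The change of -0.30 at 48 h was called without both of those arrays (adjusted p 0.011) and in the fit of 0 and 48 h alone (adjusted p 0.027).

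Of the 5 V-ATPase genes, 4 were called higher at 72 h, beside 32.8% of all genes, and none at any earlier time against 0 h. The changes were 0.18 to 0.45 at 72 h, with a median of 0.40. ATP6AP1, an accessory subunit of the pump, had signals of 754.0, 792.1 and 984.5 at 72 h, against 577.8, 604.4 and 657.7 at 0 h, a rise of 0.44 ± 0.11 (adjusted p 0.0022). ATP6V0D1, the subunit that joins the rotor to the membrane ring, had signals of 755.1, 759.5 and 994.0 at 72 h, against 617.0, 612.0 and 647.9 at 0 h, a rise of 0.40 ± 0.11 (adjusted p 0.0065). On both genes replicate 3 was the highest array at 72 h, and the groups did not overlap.

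The cytosolic part of the pump, which hydrolyses ATP, was represented by ATP6V1A, its catalytic subunit, and ATP6V1H, a regulatory subunit. ATP6V1A had signals of 1022.8, 1045.2 and 930.4 at 72 h, against 886.3, 917.0 and 781.7 at 0 h, a rise of 0.21 ± 0.08 (adjusted p 0.033), lost without replicate 3 of 0 h or replicate 1 or 2 of 72 h (adjusted p 0.091 to 0.17). At 24 h its change of -0.22 was not called, and 6 alternatives called it lower, median centring (-0.30, adjusted p 0.035) among them. ATP6V1H had signals of 281.4, 287.7 and 353.2 at 72 h, against 189.0, 210.2 and 265.8 at 0 h, and rose by 0.45 ± 0.14 (adjusted p 0.011), lost without replicate 1 of 0 h or replicate 3 of 72 h (adjusted p 0.066 and 0.057). ATP6AP2, the prorenin receptor and another accessory subunit, changed by 0.18 and was not called (adjusted p 0.063); it was called without replicate 2 of 0 h, replicate 3 of 8 h or replicate 1 of 24 h (adjusted p 0.039 to 0.046). All 5 kept a positive change with arrays centred on their medians (0.09 to 0.36), where ATP6AP1 alone was still called (adjusted p 0.017) and ATP6V0D1 and ATP6V1H both had an adjusted p of 0.055; with quantile normalisation all 5 were called.

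Comparing each time with the one before placed most calls between 24 and 48 h, for the lysosomal genes as for the whole array. In that step 25.7% of the 35 were called in either direction, beside 22.9% of all genes. The median signed change of the 35 was 0.04 in that step and 0.05 at 72 h against 48 h, beside 0.04 and 0.01 for all genes. Rises and falls cancel in such a median, so it does not measure size. Single changes ran from -0.57 to 0.56 in that step and from -0.55 to 0.38 at 72 h against 48 h. At 24 h against 8 h, GLA alone was called, lower by -0.40 ± 0.10 (adjusted p 0.020), beside 2.54% of all genes higher and 3.24% lower; the call was lost without replicate 3 of 8 h or replicate 3 of 24 h. At 48 h against 24 h, 6 genes were higher (MANBA 0.56, ASAH1 0.44, GAA 0.42, ATP6V1A 0.39, LAMP2 0.39 and SCARB2 0.28) and 3 lower (GUSB -0.57, GLA -0.37 and CTSL -0.36), beside 12.4% and 10.5% of all genes. At 72 h against 48 h, no gene was higher and 2 were lower, CTSL by -0.55 (adjusted p 0.0022) and GUSB by -0.39 (adjusted p 0.011), beside 4.54% and 6.14% of all genes. With replicate number as a block, ATP6AP1 (0.31) and ATP6V0D1 (0.29) were called higher in that last step (adjusted p 0.035 and 0.019) and GLA lower (-0.29, adjusted p 0.043).

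Several genes were measured by more than 1 probe set above the filter. Of 16 such genes, the brightest probe set, which stood for the gene, was called at 72 h for 5, with the adjustment here over all 27307 probe sets. For TPP1 and CLN3 a further probe set was also called higher: TPP1 had 1.15 and 0.56 beside 0.48, and CLN3 0.50 beside 0.45. Another probe set of TPP1 stood at 0.08 and was not called. The TPP1 probe set at 1.15 had signals of 5.6 to 8.2 at 0 h, below the filter signal of 16.6. It was also called higher at 24 h (0.88, adjusted p 0.029). For ATP6V1A and ATP6V1H the other probe set was not called (0.12 and 0.22). For ASAH1 the probe sets went opposite ways, with 0.25 and 0.35 called higher, -0.47 called lower, and 0.11 not called; the probe set at 0.35 had been called lower at 24 h (-0.56, adjusted p 0.0021).

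For CTSC, cathepsin C, the probe set in use changed by -0.16 and was not called, while 2 others were called lower (-0.57 and -0.41) and a further probe set stood at 0.10. LAMP2 had 0.14 and not called on the probe set in use, with -0.31 called lower and -0.25 and 0.31 not called. ARSB had its other probe set called lower at 48 and 72 h (-0.42 and -0.46, adjusted p 0.045 and 0.021). PSAP had its other probe set called lower at 24, 48 and 72 h (-0.31, -0.25 and -0.24, adjusted p 0.027, 0.025 and 0.027). GM2A had 1 of 5 other probe sets called higher at 48 and 72 h (0.35 and 0.44, adjusted p 0.0499 and 0.011), while the other 4 lay between -0.22 and 0.27 at 72 h. HEXA was no longer called when adjusted over all probe sets (adjusted p 0.057), and its other probe sets stood at -0.07 and 0.26. GAA, MANBA, MAN2B1, GLA, GUSB, CTSL and LGMN each had a single probe set above the filter, so no such comparison was available for them.

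**Figure D4:**
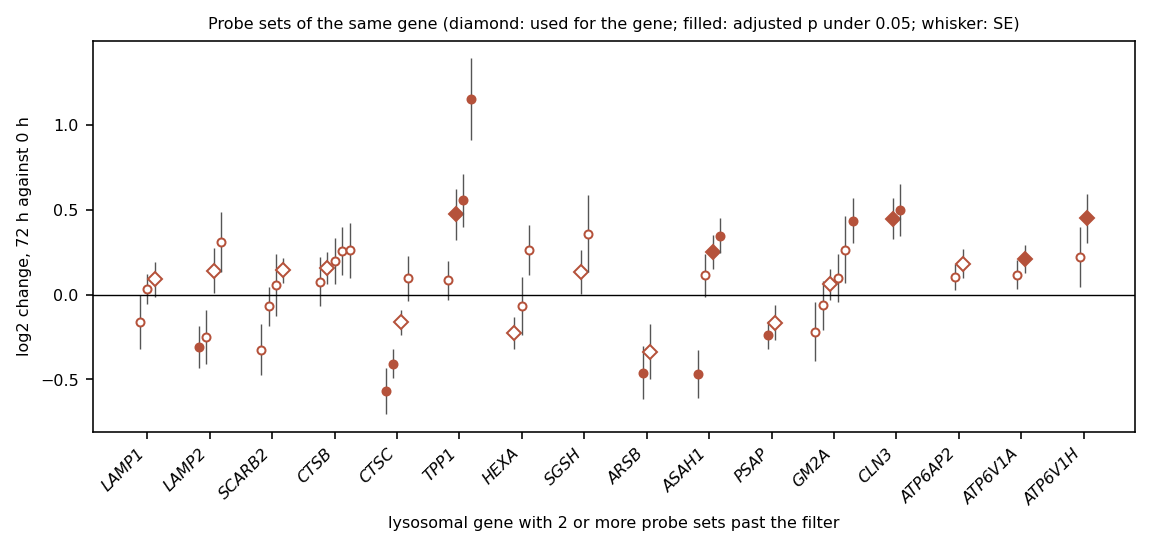
Log2 change at 72 h against 0 h with its SE for every probe set above the filter of the 16 lysosomal genes with more than 1; diamonds mark the probe set used for the gene and filled symbols an adjusted p under 0.05 over all probe sets. ASAH1 has called probe sets on both sides of 0 (0.35 and -0.47), whereas those of TPP1 lie at 0.08 to 1.15.

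Promoters were searched for exact matches to TCACGTGA and CACGTG, as forms of the element to which TFEB binds. Inexact forms were not searched. RefSeq promoters were matched for 26 of the 39 genes. The 8-base palindrome TCACGTGA, which reads the same on both strands and contains the 6-base CACGTG, was found in 6 of the 26 (23.1%), beside 0.98% of 35116 promoters and 1.18% of 27305 genes. CACGTG itself was in 10 of 26 (38.5%), beside 7.26% of promoters and 8.77% of genes. The 6 genes were LAMP1, CTSA, GAA, MCOLN1, CLN3 and ATP6V0D1. Windows of 80 bases around the first site are shown for the 5 besides GAA, on GRCh38.p14, with TCACGTGA in capitals, so that the sites can be compared.
LAMP1, chr13:113297174-113297253, strand +: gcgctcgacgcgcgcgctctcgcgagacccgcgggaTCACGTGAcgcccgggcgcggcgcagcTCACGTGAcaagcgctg
CTSA, chr20:45891273-45891352, strand +: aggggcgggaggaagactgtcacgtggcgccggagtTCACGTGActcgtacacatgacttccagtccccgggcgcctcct
MCOLN1, chr19:7522546-7522625, strand +: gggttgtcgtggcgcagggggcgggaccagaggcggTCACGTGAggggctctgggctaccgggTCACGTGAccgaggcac
CLN3, chr16:28492033-28492112, strand -: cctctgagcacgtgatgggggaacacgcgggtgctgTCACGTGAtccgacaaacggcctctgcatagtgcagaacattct
ATP6V0D1, chr16:67481174-67481253, strand -: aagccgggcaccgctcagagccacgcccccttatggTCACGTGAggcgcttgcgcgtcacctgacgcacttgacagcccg

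The sites lay close to the gene start: the first one began 2 bases before it in CLN3, 26 in CTSA, 29 in LAMP1, 42 in MCOLN1, 60 in ATP6V0D1 and 77 in GAA, and LAMP1, GAA and MCOLN1 held 2 sites each. Of the 6 genes with the site, 4 were called higher at 72 h (GAA, CLN3, ATP6V0D1 and CTSA), beside 32.8% of all genes, none was lower, and LAMP1 and MCOLN1 were not called. With arrays centred on their medians ATP6V0D1 and CTSA lost the call. Of 17 tested genes whose promoter in the table lacks it, 3 were higher (MAN2B1, TPP1 and ATP6AP1), 3 lower (GLA, GUSB and CTSL) and 11 not called. Of 12 tested genes with no promoter in the table, 4 were higher, 2 lower and 6 not called. These counts are a description of few genes, a match of letters is not a measured binding site, and the difference between the classes was not tested.

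Genes of related pathways were taken as 6 lists written for this report. Of 114 genes in the lists, 95 were measured, and 46 were called higher and 11 lower at 72 h (48.4% and 11.6%), with a median change of 0.26, beside 32.8% and 22.7% of all genes with a median of 0.10; with arrays centred on their medians 20 were lower. The earlier counts were 0 higher with 2 lower at 8 h, 8 with 12 at 24 h, and 29 with 11 at 48 h. At 8 h these were 0% and 2.11% of the 95, beside 0.0934% and 0.357% of all genes. At 24 h they were 8.42% and 12.6%, beside 7.74% and 5.72%. At 48 h they were 30.5% and 11.6%, beside 26.3% and 17.7%. The difference from the members was not tested.

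Other lysosomal enzymes had 10 of 16 higher and 1 lower at 72 h, with a median of 0.40. IDUA, alpha-L-iduronidase, rose by 1.26 and DPP7, a dipeptidyl peptidase, by 0.66. CTSK, cathepsin K, averaged 153 at 72 h, against 68.4 at 0 h (adjusted p 2.6e-07), and LIPA, lysosomal acid lipase, was lower by -0.80. LIPA averaged 187 at 8 h, against 387 at 0 h (-0.99 ± 0.10, adjusted p 1.2e-04), and was lowest at 24 h (-1.35). Other membrane proteins had 8 of 17 higher and 2 lower, with a median of 0.37: the chloride transporter CLCN7 rose by 1.10, the sialic acid exporter SLC17A5 by 0.93 and SIDT2 by 0.82, and LAPTM4B was lower by -0.89. Other V-ATPase subunits had 3 of 12 higher (ATP6V0A1 0.48, ATP6V0E2 0.48 and ATP6V1G1 0.47) and none lower, with a median of 0.07, below that of all genes.

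Genes that sort enzymes to lysosomes had 8 of 15 higher and 4 lower, with a median of 0.24. GNPTAB, which makes the mannose 6-phosphate tag, rose by 0.92 and the adaptor GGA3 by 0.86, while the related adaptor GGA2 fell by 1.26 and AP3M1, of the AP-3 adaptor complex, by 0.87. Tethering and fusion genes had 6 of 13 higher and 1 lower, with a median of 0.14. The fall was that of RAB7A, the small GTPase of late endosomes, which averaged 193 at 8 h, against 415 at 0 h (-1.05 ± 0.11, adjusted p 1.4e-04), reached -1.45 at 24 h and stood at -0.97 at 72 h. STX8, a SNARE, rose by 0.79, PLEKHM1, an adaptor of lysosome fusion, by 0.57 and VPS11, of the HOPS complex, by 0.52. Regulators of TFEB and mTORC1 had 11 of 22 higher and 3 lower, with a median of 0.27: the Rag GTPases RRAGB and RRAGD rose by 0.97 and 0.81, and TSC1 and TSC2, the inhibitors of mTORC1, by 0.97 and 0.79.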

How the data were processed

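Total RNA of IMR32 cells was measured on 15 arrays. Per the submitters' processing notes, MAS5 and GCOS produced the values; their versions are not given in the sources used here. The authors' deposited values are linear signal intensities of 54675 probe sets, and the trimmed mean (2% at each end) was 100.01 on every array, so these intensity values were used with no further scaling. Precision is limited by having 3 arrays per time.

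The array annotation gives 41091 probe sets 1 gene, 1801 several and 11721 none, and 62 are controls. Values were taken as log2(signal + 16), a scale that understates changes of dim genes. A probe set entered if its mean reached the median of all non-control probe sets, a signal of 16.6, and 27307 did. The brightest probe set naming 1 gene stood for it, with symbols updated through Entrez identifiers. The lysosomal genes had 87 probe sets, of which 70 passed.

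A single limma 3.58.1 model (lmFit, eBayes with trend) held all 5 times, in R 4.3.3, with Benjamini-Hochberg adjustment over 11774 genes at 0.05. On simulated data for 72 h against 0 h, 4, 27, 47 and 50 of 50 genes changed by 0.25, 0.5, 1 and 2 on the log2 scale were recovered, with 7 false calls among 11574. The simulation left those 11574 of 11774 genes unchanged, whereas 55.5% of all genes were called at 72 h in the data. The Benjamini-Hochberg cutoff depends on that share, so these counts do not give the recovery in the data. Alternatives were pseudocounts of 1 and 64, quantile normalisation, median centring, other filters and probe set rules, no variance trend, array weights, the replicate block, the 2 times alone, a minimum change of 0.5, and arrays left out. Motif searches and figures used Python 3.11.15, pandas 2.3.3 and matplotlib 3.10.9.

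The members and lists were chosen with earlier results of these data known. Values on every array at all 5 times go to genes past the F test with an absolute change of 0.75 or more at any time and to TFEB; MCOLN1 was added after its values were seen. Other members have single values, and the related lists up to 4 called genes each with the greatest change at 72 h, plus RAB7A and LIPA.

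Arrays share replicate numbers across times. Deviations from the time means correlated at -0.08 to 0.35 (median 0.12) between arrays of the same number and at -0.28 to 0.17 (median -0.08) between others. All 3 pairs exceeded 0.1 for 48 h against 0 h and for 72 h against 48 h, and for these the replicate block stands beside the results it changes.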

Additional observations from a re-analysis of the deposited data

How the results depend on the processing

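The precision of 3 arrays per time and signals near the filter, as for TFEB, limit what could be called. Of 4032 comparisons of a gene's change with an alternative, 3879 stayed on the same side of the threshold, 136 of them uncalled in both with another sign. A further 85 lost the call, 65 gained it and 3 changed sign with a call in only 1 of the 2 fits. GAA, MANBA, GLA, GUSB and LGMN at 48 and 72 h, CD63 at 24 and 48 h, and CTSL, CLN3, MAN2B1 and ATP6AP1 at 72 h kept their call in each alternative fit in which they were measured. The minimum change of 0.5, a rule on size and no refit, is not among these, and under it CD63, LGMN, CLN3 and ATP6AP1 were not counted. These 3 sign changes were HEXA at 72 h (0.26 with unique probe sets preferred, not called there, adjusted p 0.15) and MCOLN1 at 72 h (0.28 without replicate 3 of 8 and 72 h, and 0.34 without replicate 3 of all times). MCOLN1 was uncalled in the main fit (-0.06, adjusted p 0.88), so no call turned into a call in the other direction. For the lysosomal genes, median centring gave 0 higher at 24 h, 2 at 48 h and 6 at 72 h, 8 lower at 72 h, 3 lower at 24 h against 8 h, and, over the related lists, 3 higher at 24 h and 20 lower at 72 h; it moved the median of all genes at 72 h to 0.01, against 0.10 as deposited. Quantile normalisation gave 5 higher at 24 h in the lists and 1 higher at 72 h against 48 h. A minimum change of 0.5 gave 0 higher and 0 lower at 24 h, 2 and 2 at 48 h, 3 and 3 at 72 h, 0 lower at 24 h against 8 h, 1 and 1 at 48 h against 24 h and 1 lower at 72 h against 48 h. Array weights gave 5 higher and 4 lower at 24 h, 16 higher in the lists, 2 lower at 24 h against 8 h and 2 higher at 72 h against 48 h. They also raised the counts over all genes at 24 h, to 1409 higher and 933 lower from 911 and 673. The mean of probe sets gave 2 higher and 4 lower at 24 h and 1 higher at 24 h against 8 h, a pseudocount of 1 gave 1 there, unique probe sets gave 2 higher at 24 h and 1 lower at 8 h in the lists, and no filter and no variance trend each gave 3 higher at 48 h (no trend also 1 higher at 24 h against 8 h). The brightest 25% of probe sets gave 3 lower at 24 h against 8 h. The 2 times alone gave 2 higher at 24 h, 0 lower at 24 h against 8 h and 1 lower at 72 h against 48 h. Without replicate 3 of 8 and 72 h there were 2 higher at 24 h, 1 at 24 h against 8 h and 2 at 72 h against 48 h; without replicate 3 of all times, 2 higher at 24 h, 0 lower at 24 h against 8 h and 3 higher at 72 h against 48 h. The cause of these shifts was not tested.

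With replicate number as a block, 2 were higher at 24 h, 1 higher and 3 lower at 24 h against 8 h, and 2 higher at 72 h against 48 h. Of the 15 arrays, 10 correlated best with an array of their own number. The block also raised the counts over all genes at 24 h, to 1153 higher and 838 lower from 911 and 673. It added calls for CTSF and ASAH1 at 24 h and CD63, SCARB2 and ATP6AP2 at 72 h, where the pairing rests on the number alone, and changed no other call of a time against 0 h than these and MAN2B1 at 48 h.

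Leaving out each of the 15 arrays in turn gave 17 to 21 lysosomal genes past the F test, 0 at 8 h, 1 to 2 higher and 1 to 2 lower at 24 h, 2 to 5 and 4 to 6 at 48 h, and 8 to 13 and 4 to 5 at 72 h. The count higher at 48 h was 3 without replicate 1, 2 without replicate 2 and 3 without replicate 3 of 0 h, and 3 without replicate 1 or 2 of 24 or 48 h. Ranges were 0 to 1 higher and 0 to 3 lower at 24 h against 8 h, 4 to 6 and 2 to 3 at 48 h against 24 h, and 0 to 1 and 1 to 3 at 72 h against 48 h. In the related lists they were 2 to 11 higher and 10 to 12 lower at 24 h (2 without replicate 1 of 0 h or replicate 3 of 24 h, 4 or 5 without the other arrays of 0 h or replicate 1 of 24 h), 25 to 31 and 8 to 12 at 48 h, and 40 to 49 and 8 to 12 at 72 h. The MCOLN1 change at 72 h ran from -0.23 without replicate 2 of 72 h to 0.34 without replicate 3 of all times. The CDK2 change stayed at -1.22 to -1.12 at 8 h and at -2.60 to -2.29 at 72 h.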
